A study of Mus musculus with 7 samples.

Results

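Mouse mammary glands in organ culture were compared between 2 of the 7 deposited arrays, 1 titled as an ESR2 (ERβ) knockout after 24 days of culture and 1 of C57 glands after 24 days of culture with DMBA. The arrays were chosen by these titles, and the probes were those for genes whose spots the scanner software called good on both. A spot not called good was near background or had another quality call. Of 34967 gene probes, 23072 met this. Another array, of C57 glands after 24 days of culture without DMBA, is given beside them as context.

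The mice of the first array were labelled βERKO on a C57BL6/129SV background, and those of both WT arrays were wild type on a C57 background; all were 4 weeks old. By the protocol, thoracic glands went through 10 days of growth promotion with insulin, prolactin, aldosterone and hydrocortisone and 14 days of regression with insulin alone, with DMBA, a polycyclic aromatic hydrocarbon carcinogen, at 2 µg/ml on Day 3 for 24 h. The title of the WT array names DMBA and that of the βERKO-labelled array does not, although the protocol applies it to the study's groups. The protocol text gives 2 pretreatments of the mice, 25 ng EGF with 1 mg progesterone for 5 days and 1 µg estrogen with 1 mg progesterone for 9 days. For the arrayed WT, αERKO and βERKO groups the study names the one with EGF. RNA of 5 mice per group was pooled in equal amounts for each of the WT, αERKO and βERKO groups, so each group is 1 array, no difference below has a replicate check and no test was run. Genotype and strain background cannot be told apart between these arrays. If the titles are taken at their word, DMBA exposure differs as well and cannot be told apart from either.

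ERα and ERβ are nuclear receptors that bind estrogen and regulate transcription, ERα through the estrogen response element and through AP-1 and other factors. In the mammary gland ERα, in luminal cells, drives ductal growth and the progesterone receptor, while ERβ is present in several epithelial and stromal cells. DMBA is metabolised by cytochrome P450 enzymes that the aryl hydrocarbon receptor induces, and the products bind DNA. NRF2 is a factor that induces enzymes of glutathione and quinone metabolism under oxidative and electrophilic stress.

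Over the 7 arrays the gene probes had a median intensity of 39.1 to 53 against a local background of 80 to 83, and 68.4% to 74.2% of probes were called good. Levels below are intensities divided by the median of the gene probes of the array. A log2 ratio is the level on the βERKO-labelled array over that on the WT array with DMBA unless another array is named, and a difference is counted when it is over 2-fold. Besides the pixel spread within a spot, not used here, the only error that single arrays give is the spread between probes. Log2 ratios of different probes of the same transcript had an SD of 0.37 over 657 pairs, which measures probes and not animals.

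The Esr2 probe (GE1577274), for the gene that the label says is knocked out, was examined first. It had a level of 1.83 on the βERKO-labelled array, where it was called good, against 0.0170 on the WT array with DMBA, where it was near background, and 0.683 on the WT array without DMBA, where it was called good. It was brighter by at least 6.69-fold on the βERKO-labelled array than on the WT array with DMBA. The targeted gene therefore goes against the label of the array, and it is called by its label throughout. Where in the gene the probe lies relative to the deleted part was not examined here. The Esr1 probe (GE42492), for ERα, had a level of 0.304 on the βERKO-labelled array, near background, 0.494 on the WT array with DMBA, called good, and 0.0641 on the WT array without DMBA, near background. On that array it lay at least 1.52-fold below the WT array with DMBA.

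**Figure D1:**
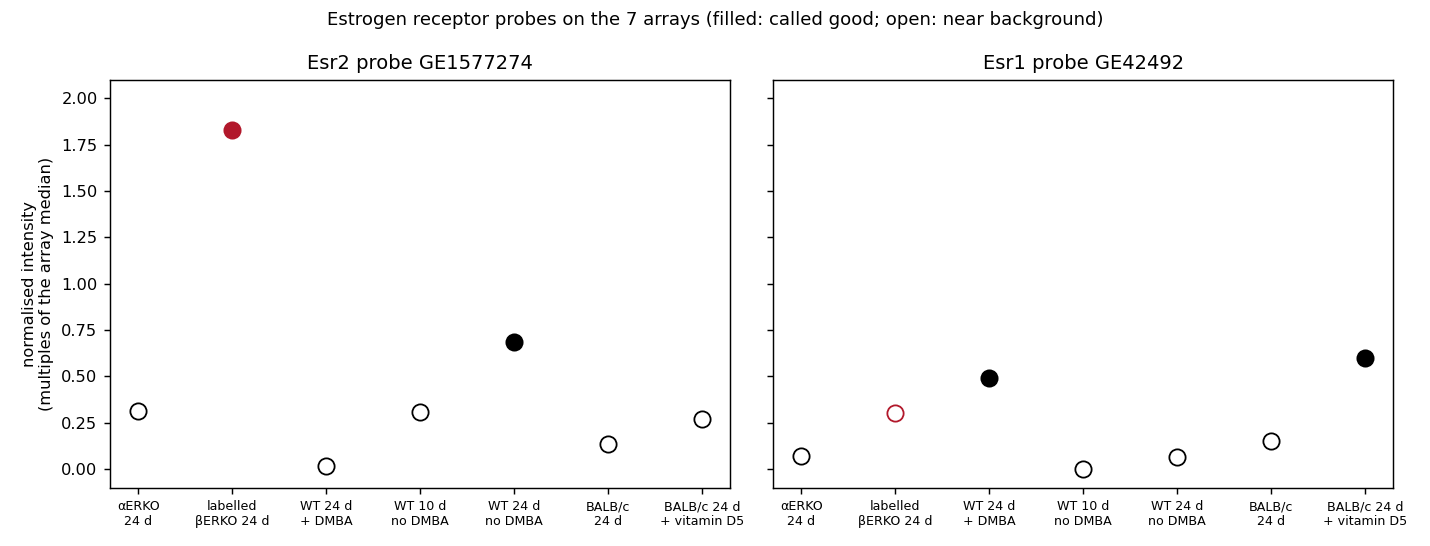
Levels of the Esr2 and Esr1 probes on the 7 arrays in multiples of the array median, with 1 point per array, filled where the probe was called good. The Esr2 point of the βERKO-labelled array, at 1.83, lies above the other 6, the nearest being the WT array without DMBA at 0.683.

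Of the 23072 probes good on both arrays, 1938 (8.4%) were over 2-fold apart, with 942 (4.08%) above and 996 (4.32%) below the WT array with DMBA, and 411 differed by more than 4-fold. The median log2 ratio was 0.11. In genes with a name, 1031 of 10860 (9.49%) differed, 530 (4.88%) higher and 501 (4.61%) lower, with a median log2 ratio of 0.15. Of the named genes, 40 lay just inside the 2-fold line, within 0.02 of it on the log2 scale, and 42 just outside. The shares higher and lower are the background for each list of genes below. For scale, 2712 of 23042 probes (11.8%) were over 2-fold apart on the 2 WT arrays, and 1654 of 22385 (7.39%) between the βERKO-labelled array and the WT array without DMBA. A further 1513 probes were good only on the βERKO-labelled array, and 542 of them (35.8%) were brighter there by a bound over 2-fold. Of 2884 probes good only on the WT array with DMBA, 400 (13.9%) were brighter there by such a bound. On the dim array 114 of the 1513 and 119 of the 2884 had a call other than near background. The bounds were counted with these probes included.

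**Figure D2:**
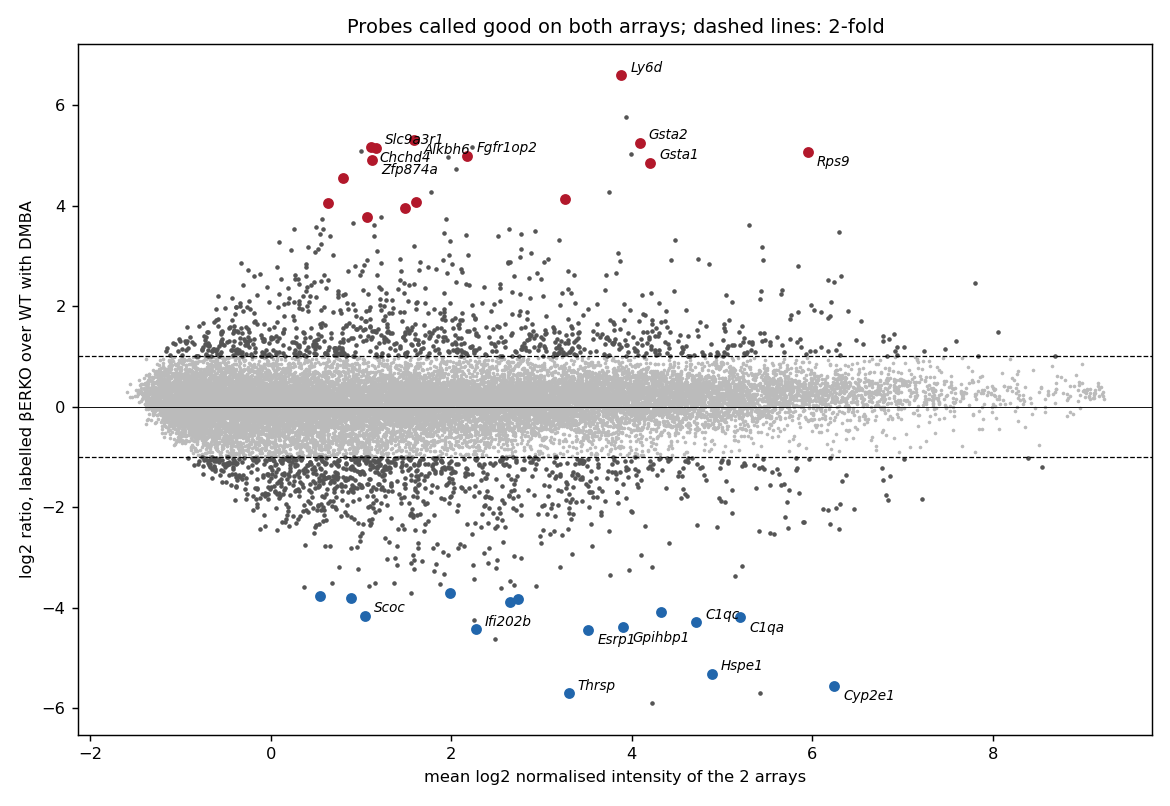
Log2 ratio of the βERKO-labelled array over the WT array with DMBA against the mean log2 normalised intensity, for the 23072 probes good on both arrays, 1 point per probe. Dashed lines mark 2-fold, red and blue points are the 15 named genes with the largest ratios each way, and unnamed points beyond them are probes without a gene name, not used for their gene or set aside by the naming rule. Ly6d, at a log2 ratio of 6.60, and Thrsp, at -5.70, lie at the ends.

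Among the named genes the largest ratio was that of Ly6d, a membrane protein of squamous epithelium. Ly6d had a level of 145 on the βERKO-labelled array, 1.5 on the WT array with DMBA and 4.07 on the WT array without DMBA, a log2 ratio of 6.60. It was high on the βERKO-labelled array and low on both WT arrays. It was also high on the αERKO array, at 159, and had a level of 27.8 on the 10-day WT array. Gsta2 (105, 2.75 and 162 on the same arrays) and Gsta1 (99.3, 3.44 and 170), alpha-class glutathione transferases, had log2 ratios of 5.26 and 4.85. For these 2 genes the WT array with DMBA was the low one of the arrays compared here. On the αERKO array Gsta2 and Gsta1 were lower still, at 0.394, near background, and 1.30. They are near-identical paralogs, whose probes may read each other's transcript. Ptgs2, the inducible cyclooxygenase, likewise had a level of 7.77 on the βERKO-labelled array and 7.98 on the WT array without DMBA, against 0.565 on the WT array with DMBA, a log2 ratio of 3.78. Rps9, a protein of the small ribosomal subunit, had a level of 360 on the βERKO-labelled array against 10.7 and 10.8 on the WT arrays with and without DMBA, a log2 ratio of 5.08. The 2 WT arrays lay close together for this gene.

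At the other end stood Thrsp, a regulator of lipogenesis, with a level of 1.37 on the βERKO-labelled array, 71.1 on the WT array with DMBA and 11.8 on the WT array without DMBA, a log2 ratio of -5.70. Cyp2e1, a cytochrome P450 found in adipose tissue and liver, had levels of 11.1, 521 and 232 on the same arrays, a log2 ratio of -5.55. Hspe1, the mitochondrial co-chaperonin, had levels of 4.70, 187 and 260, a log2 ratio of -5.31. Among the arrays compared here the βERKO-labelled array was lowest in these genes, and both WT arrays stood higher. Esrp1, a splicing regulator of epithelial cells, had levels of 2.46, 53.5 and 81.1, a log2 ratio of -4.44. C1qa and C1qc, chains of complement C1q made by macrophages, had log2 ratios of -4.19 and -4.29. For these chains the WT array without DMBA, at 22.4 and 13.7, lay nearer to the βERKO-labelled array, at 8.62 and 5.94, than to the WT array with DMBA, at 157 and 117.

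**Figure D3:**
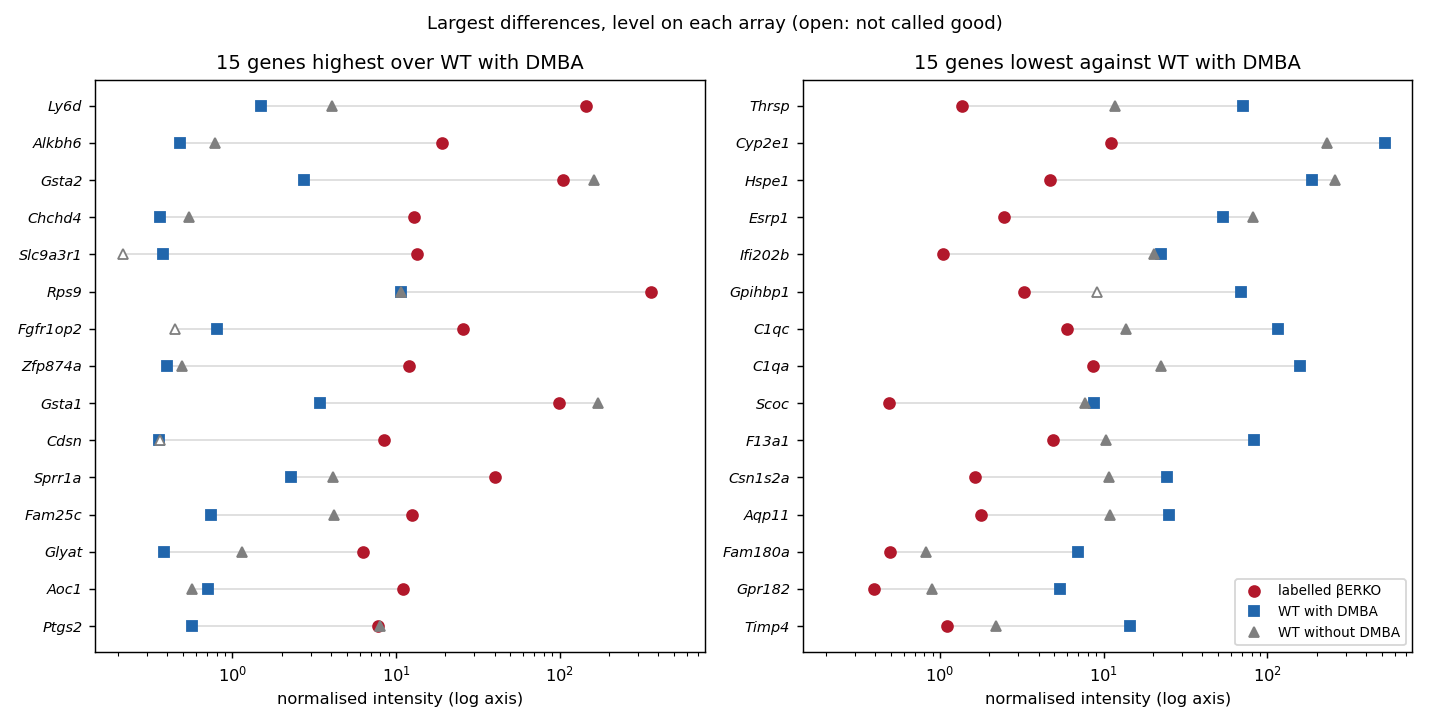
Normalised intensity on a log axis of the 15 genes with the highest and the 15 with the lowest ratio to the WT array with DMBA, 1 point per array, open where the probe was not called good. For Gsta1, Gsta2 and Ptgs2 the WT array without DMBA lies beside the βERKO-labelled array, and for Rps9, Scoc and Ifi202b the 2 WT arrays lie together.

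The αERKO array carries the same label of strain background, C57BL6/129SV, as the βERKO-labelled array, and the other 5 arrays are C57 or BALB/c. Set beside all 7 arrays, a comparison chosen after the values were seen, 10 of the 15 genes with the highest ratios were over 2-fold higher on both arrays of that background than on each of the 5 others, and 4 of the 15 with the lowest ratios were over 2-fold lower. Over all named genes the shares were 0.599% and 0.276%. The 30 genes were chosen on the ratio of 1 of these 2 arrays to 1 of the 5 others. The split was thus partly fixed by the choice, which was not so for all named genes, and the comparison is a description. Rps9 had a level of 275 on the αERKO array and between 10.5 and 12.7 on the 5 others. Hspe1 had a level of 3.04 on the αERKO array and between 187 and 260 on the others. Alkbh6, a member of the AlkB family, had a level of 19.0 on the βERKO-labelled array, 16.3 on the αERKO array and 0.477 to 1.12 on the others. Esrp1, with 1.78 on the αERKO array and 53.5 to 120 on the others, and Ifi202b, an interferon-inducible gene of the innate immune system, with 1.04 on the βERKO-labelled array, 0.185 near background on the αERKO array and 11.7 to 22.5 on the others, showed the same split. Whether the strain background or a knockout sets these levels cannot be told apart. Thrsp and Cyp2e1 did not follow it, with levels of 125 and 622 on the αERKO array. Low levels were also found without a knockout label. On the 10-day WT array and the BALB/c arrays without and with vitamin D5, Cyp2e1 had 2.44, 1.87 and 1.86. Thrsp had 2.68, 3.51 and 3.98 there.

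Probes good on 1 array only give bounds. Cda, cytidine deaminase, had a level of 33.6 on the βERKO-labelled array and 0.128, near background, on the WT array with DMBA, at least 123-fold brighter on the first. Thumpd1, Nol10 and Zfp68 were at least 82.6-fold, 27.6-fold and 26.6-fold brighter there. In the other direction Csn2, β-casein, had a level of 0.251 on the βERKO-labelled array, near background, against 55.3 on the WT array with DMBA and 41.9 on the WT array without DMBA, at least 170-fold lower. Tnfsf11, RANKL, a paracrine signal downstream of progesterone, had levels of 0.153, 40.0 and 5.46, at least 123-fold lower. Sprr2f, a small proline-rich protein of the cornified envelope, had levels of 0.587, 52.6 and 5.29, at least 89.6-fold lower. Vsig4, a complement receptor of resident macrophages, was at least 32.0-fold lower. Both WT arrays were thus well above the βERKO-labelled array for Csn2, Tnfsf11 and Sprr2f.

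The hormone receptors measured on both arrays differed little. None of the 6 measured genes of steroid and prolactin receptors was over 2-fold apart, with log2 ratios from -0.81 for Prlr, the prolactin receptor, to 0.21 for Nr3c1, the glucocorticoid receptor. Pgr, the progesterone receptor, had a level of 1.07 on the βERKO-labelled array, 1.61 on the WT array with DMBA and 0.983 on the WT array without DMBA. Gper1, the membrane estrogen receptor also called GPR30, had levels of 0.915, 1.08 and 0.857, a log2 ratio of -0.24. Of 11 measured receptor coregulators none was over 2-fold apart, and the median log2 ratio was -0.02.

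Of 18 measured genes that respond to estrogen in other settings, 1 was over 2-fold higher and 5 lower, with a median log2 ratio of -0.10. The largest ratios were those of C3, complement component 3 (-2.40), Igfbp4, a binding protein of insulin-like growth factors (-1.84), Igf1, the growth factor itself (-1.82), and Muc1, an apical mucin of luminal cells (-1.36). Igf1 had a level of 8.18 on the βERKO-labelled array, 28.9 on the WT array with DMBA and 5.82 on the WT array without DMBA. The βERKO-labelled array was thus lower than the first WT array and above the second. Muc1 was 12.1 against 31.0 and 30.1, lower than both. The consensus estrogen response element, GGTCA and TGACC with 3 bases between them, was searched on both strands of RefSeq promoters of GRCm38.p6, from 250 bases before to 50 after the start, and was in 0 of the promoters of 19 list genes and in 0.07% of all promoters.

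Among genes of the cell cycle Ccnd1, cyclin D1, had a level of 1.74 on the βERKO-labelled array, 0.838 on the WT array with DMBA and 0.773 on the WT array without DMBA, a log2 ratio of 1.05. Ccnd2 and Ccnd3, the other D cyclins, had log2 ratios of -0.27 and -1.0. Of 24 measured proliferation genes none was over 2-fold apart, and the highest log2 ratio was that of Kif11, a mitotic kinesin, at 0.85. Among 17 immediate early genes 2 were over 2-fold higher: Fosl1, an AP-1 subunit, at 2.54, and Ier3 at 2.52. Jun, Srf and Fos had log2 ratios of 0.79, 0.63 and 0.26. Fosl1 had levels of 19.2 on the βERKO-labelled array, 3.30 on the WT array with DMBA and 18.1 on the WT array without DMBA. For both genes the WT array with DMBA was again the low one of the arrays compared here. On the αERKO array Fosl1 and Ier3 were lower still, at 0.363, near background, and 12.4.

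Markers of the cells in the gland were read before the other lists, since in bulk RNA fewer cells of a type and less RNA per cell cannot be told apart. Luminal and basal epithelium were present on both arrays. Epcam, a surface protein of epithelium, had a level of 161 on the βERKO-labelled array and 126 on the WT array with DMBA, and the 19 measured of 20 luminal markers had a median log2 ratio of 0.41, with 2 over 2-fold higher and 2 lower. Of 14 measured basal and myoepithelial markers 2 were higher and 1 lower, with Krt17 and Krt14, basal keratins, at log2 ratios of 2.21 and 1.35. The contractile genes of the list were split. Cnn1, calponin, at -1.48, and Tagln and Acta2, smooth muscle proteins, at -0.72 and -0.41, lay below 0. Actg2, another smooth muscle actin, lay above it at 0.58. Myh11, smooth muscle myosin, had a level of 0.117 on the βERKO-labelled array, against 32.1 and 6.0 on the WT arrays with and without DMBA. On the βERKO-labelled array its spot had a quality call other than good or near background, so no bound is drawn from it. Markers of fat were also high on both, with Adipoq, adiponectin, at 592 and 472. Among 19 measured adipocyte markers 5 were lower, and their summed level was 2123 on the βERKO-labelled array, 2705 on the WT array with DMBA and 1424 on the WT array without DMBA. Lymphocyte markers were few, with 6 of 15 measured and none over 2-fold apart. Csn1s2a and Csn1s1, caseins of milk, had log2 ratios of -3.88 and -3.55, beside a median of -0.25 over the 15 measured genes of milk proteins and secretion, of which 4 were lower and 1 higher.

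Most measured genes of the stroma, vessels and macrophages were over 2-fold lower on the βERKO-labelled array than on the WT array with DMBA. Of 21 measured genes of collagen and stromal matrix 13 were lower and none higher, with a median log2 ratio of -1.12. Col3a1, a fibrillar collagen, had a level of 19.9 on the βERKO-labelled array, 115 on the WT array with DMBA and 4.85 on the WT array without DMBA. Pdgfra and Pdgfrb, growth factor receptors of fibroblasts and perivascular cells, had log2 ratios of -2.08 and -2.11. The βERKO-labelled array lay between the 2 WT arrays: against the WT array without DMBA, 16 of the 19 stromal genes also good there were over 2-fold higher and none lower, with a median log2 ratio of 2.1. The direction of this list thus turned with the WT array chosen.

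Of 11 measured endothelial genes 9 were lower than on the WT array with DMBA and none higher, with a median log2 ratio of -1.35. Kdr, the main receptor for vascular endothelial growth factor, had a level of 2.82 on the βERKO-labelled array, 9.65 on the WT array with DMBA and 0.845 on the WT array without DMBA. Cldn5, a tight junction protein of endothelium, had a log2 ratio of -2.0. Against the WT array without DMBA, 4 of these genes were higher and none lower, with a median log2 ratio of 0.98, so this list turned as well. The summed level of the 13 list genes with a probe was 73.6 on the βERKO-labelled array, 187 on the WT array with DMBA and 42.1 on the WT array without DMBA.

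Of 12 measured macrophage markers 7 were lower than on the WT array with DMBA and none higher, with a median log2 ratio of -1.45. C1qb had a level of 11 on the βERKO-labelled array, 114 on the WT array with DMBA and 18.0 on the WT array without DMBA. Mrc1, the mannose receptor, had levels of 2.31, 18.1 and 2.22. The βERKO-labelled array lay near the WT array without DMBA for Mrc1, and of the 12 genes 2 were lower and none higher against that array, with a median log2 ratio of 0.10. F13a1, a coagulation factor subunit carried by tissue macrophages, had levels of 4.89, 82.5 and 10.4.

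Of 20 measured genes of the NRF2 antioxidant response 15 were over 2-fold higher on the βERKO-labelled array than on the WT array with DMBA and none lower, with a median log2 ratio of 1.41 and a lowest of 0.12. Cbr3, a carbonyl reductase, had a level of 152 on the βERKO-labelled array, 21.8 on the WT array with DMBA and 90.8 on the WT array without DMBA, a log2 ratio of 2.80. Gclc, the catalytic subunit of the first enzyme of glutathione synthesis, had levels of 113, 22.7 and 125, a log2 ratio of 2.32. The βERKO-labelled array and the WT array without DMBA lay together for Gclc, and the WT array with DMBA stood below both. Against the WT array without DMBA, 1 of the 20 genes was over 2-fold higher and none lower, with a median log2 ratio of -0.19. Outside the comparison, Cbr3 and Gclc had levels of 2.34 and 8.33 on the αERKO array, below the WT array with DMBA.

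The core of the antioxidant response element, TGACNNNGC, was searched on both strands of the same promoter window. It was in the promoters of 6 of 19 genes of the list, or 25% of their 24 promoters, and in 12.4% of all 32851 promoters. The shares were 20.8% for the estrogen-responsive list and 11.1% for the aryl hydrocarbon receptor list. The promoters of Gclm, the modifier subunit of the glutathione enzyme, and Srxn1, sulfiredoxin, are shown from RefSeq because they hold the core, in capitals, and belong to genes of this list. They were chosen after the values were seen.
Gclm, chr3:122245307-122245606, plus strand: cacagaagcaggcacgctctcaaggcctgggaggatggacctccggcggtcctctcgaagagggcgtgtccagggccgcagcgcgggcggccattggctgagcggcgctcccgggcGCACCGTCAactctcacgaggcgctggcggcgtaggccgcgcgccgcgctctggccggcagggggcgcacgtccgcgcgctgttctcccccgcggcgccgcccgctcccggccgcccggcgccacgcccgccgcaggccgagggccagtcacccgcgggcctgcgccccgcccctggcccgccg
Srxn1, chr2:152105274-152105573, plus strand: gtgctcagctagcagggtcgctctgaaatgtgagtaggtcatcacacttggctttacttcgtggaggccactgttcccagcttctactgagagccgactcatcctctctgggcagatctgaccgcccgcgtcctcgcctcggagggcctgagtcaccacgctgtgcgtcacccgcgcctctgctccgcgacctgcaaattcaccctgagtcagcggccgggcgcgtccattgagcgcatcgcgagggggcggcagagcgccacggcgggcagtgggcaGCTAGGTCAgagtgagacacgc
In both the match is on the minus strand, as GCNNNGTCA. Srxn1 had a level of 71.7 on the βERKO-labelled array, 15.3 on the WT array with DMBA and 81.1 on the WT array without DMBA, a log2 ratio of 2.23. Gclm had levels of 185, 72.4 and 200, a log2 ratio of 1.35. A match is a run of letters and not a bound site.

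The aryl hydrocarbon receptor is activated by DMBA-like hydrocarbons. Of 12 measured genes of its response 5 were over 2-fold higher and none lower, with a median log2 ratio of 0.83. Cyp1a1, the P450 that this receptor most strongly induces, had a level of 6.29 on the βERKO-labelled array against 0.866 and 0.884 on the WT arrays with and without DMBA, a log2 ratio of 2.86. It was high on the βERKO-labelled array and nearly equal on the 2 WT arrays. Cyp1b1, a P450 that activates DMBA, had levels of 126, 33.3 and 49.9, a log2 ratio of 1.92. Nqo1, a quinone reductase that NRF2 also induces, had levels of 90.2, 20.3 and 68.3, a log2 ratio of 2.15. Against the WT array without DMBA, 2 of the 11 genes also good there were higher and none lower. The core of the xenobiotic response element, GCGTG, was in the promoters of 5 of 9 genes, or 55.6% of them, and in 32.4% of all promoters. It was not particular to this list, being in 70.8% of the promoters of the NRF2 list and 37.5% of those of the estrogen-responsive list. The promoter of Cyp1a1 is shown from RefSeq with its match in capitals.
Cyp1a1, chr9:57697363-57697662, plus strand: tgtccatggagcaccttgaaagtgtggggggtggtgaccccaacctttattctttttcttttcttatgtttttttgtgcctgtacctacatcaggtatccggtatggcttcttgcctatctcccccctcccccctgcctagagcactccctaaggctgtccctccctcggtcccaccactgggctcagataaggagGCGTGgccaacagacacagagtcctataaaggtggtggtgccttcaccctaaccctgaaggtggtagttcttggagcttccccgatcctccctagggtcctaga

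Of 18 measured p53 targets 8 were over 2-fold higher and none lower, with a median log2 ratio of 0.88. Gdf15, a stress-induced growth factor, had a level of 131 on the βERKO-labelled array, 14.5 on the WT array with DMBA and 21.8 on the WT array without DMBA, a log2 ratio of 3.17. Gadd45a, a growth arrest and DNA repair gene, had levels of 61.5, 18.5 and 34.7. Both were highest on the βERKO-labelled array. Pmaip1, the BH3-only protein NOXA, had levels of 13.7, 4.96 and 12.7. Against the WT array without DMBA, 2 of the 18 were higher and none lower. In the BCL2 family 2 of 13 were higher, Pmaip1 and Bax, the latter at a log2 ratio of 1.08.

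Of 20 measured squamous differentiation genes 8 were higher and 1 lower, with a median log2 ratio of 0.78. Beside Ly6d, Sprr1a and Sprr1b, precursors of the cornified envelope, had levels of 40.3 and 20.3 on the βERKO-labelled array, 2.28 and 2.30 on the WT array with DMBA and 4.11 and 4.70 on the WT array without DMBA. Sprr2a1, of the same family, had a log2 ratio of -0.04, and Sprr2f, not in the list, was far lower on the βERKO-labelled array, as given above. Cdsn, the corneodesmosome protein, had a level of 8.42 against 0.358 and, near background, 0.359. Ivl, involucrin, was good only on the βERKO-labelled array among the 3 arrays and exceeded the WT array with DMBA by at least 5.25-fold. Ly6d, Sprr1a, Sprr1b, Cdsn and Ivl were high on the βERKO-labelled array and low on both 24-day WT arrays. Of the 19 list genes also good on the WT array without DMBA, 4 were higher and 1 lower against it. On arrays outside the comparison some were also high. Ly6d and Cdsn had levels of 159 and 7.43 on the αERKO array, which has the same strain label. Sprr1b had 17.6 on the 10-day WT array and 18.2 on the BALB/c array with vitamin D5.

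**Figure D4:**
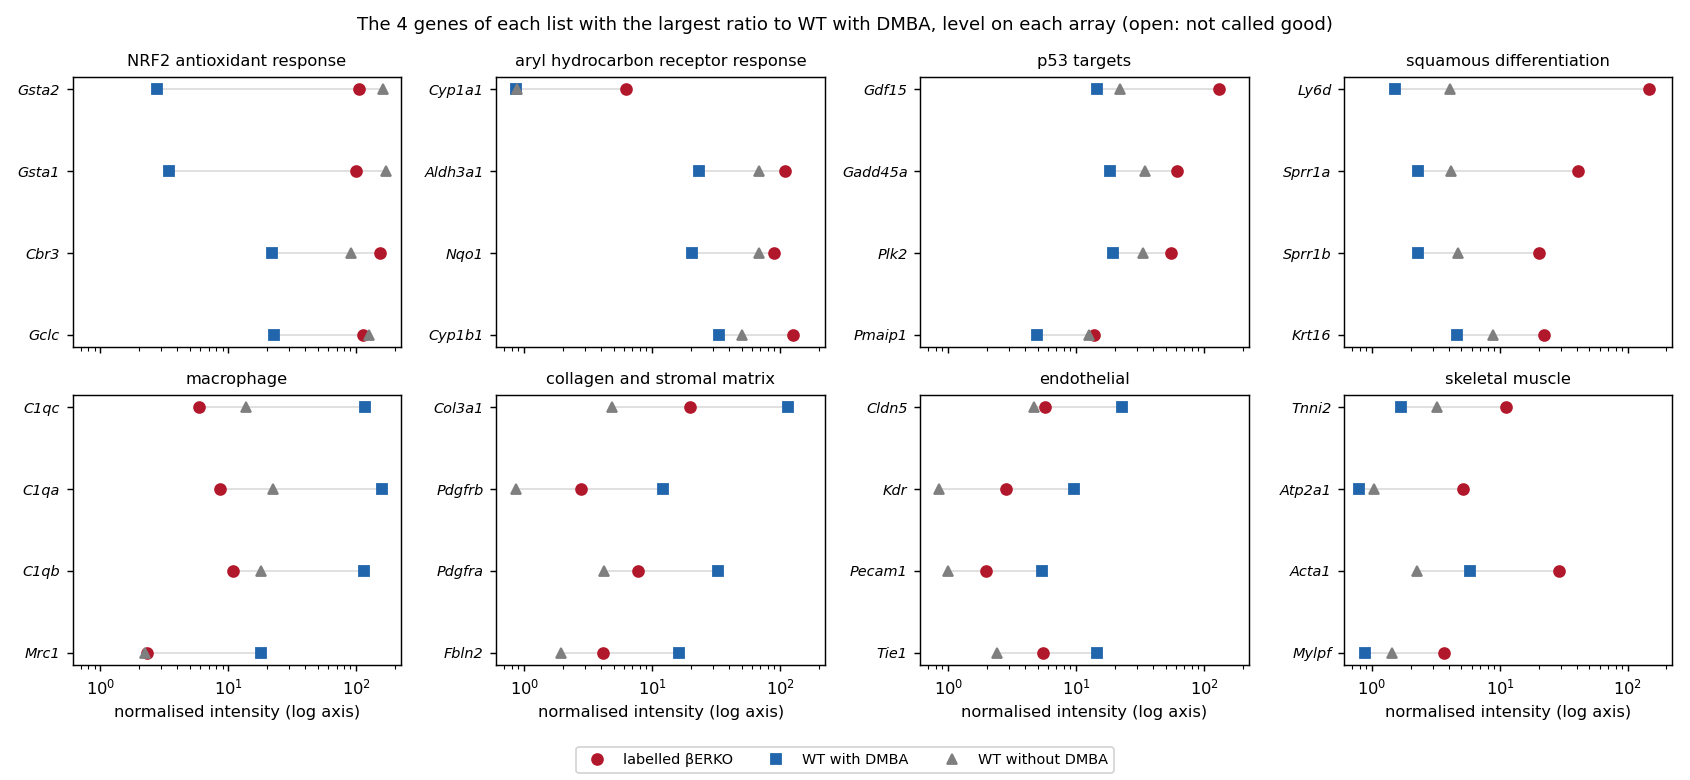
Normalised intensity on a log axis of the 4 genes with the largest ratio in each of 8 lists, 1 point per array. In the NRF2 panel the WT array with DMBA lies lowest, at 2.75 for Gsta2 and 22.7 for Gclc, in the squamous panel the βERKO-labelled array lies highest, and in the stromal panel it lies between the 2 WT arrays.

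Skeletal muscle markers, which a thoracic gland may carry from the muscle beneath it, were higher in 4 of 8 measured genes. Acta1, skeletal α-actin, had a level of 29.0 on the βERKO-labelled array, 5.81 on the WT array with DMBA and 2.24 on the WT array without DMBA, and Tnni2, a fast troponin, had levels of 11.1, 1.67 and 3.23. The summed level of the 15 list genes with a probe was 57.4, 17.2 and 12.9 in the same order. The part of muscle RNA, and of the stromal, endothelial and macrophage RNA above, in the other differences was not tested.

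Of 12 measured CXC chemokines 4 were higher and none lower. Cxcl1, an attractant of neutrophils, had a level of 138 on the βERKO-labelled array, 11.2 on the WT array with DMBA and 34.8 on the WT array without DMBA, a log2 ratio of 3.62, and Cxcl5 and Cxcl2, which act on the same receptor, had log2 ratios of 3.30 and 2.86. All 3 were highest on the βERKO-labelled array. Of the 8 within 2-fold, Cxcl12 and Cxcl15 lay lowest, at -0.98 and -0.96. Of 15 measured CC chemokines 5 were lower and 3 higher. Ccl6 had levels of 38.2, 154 and 37.5, and the 3 higher were Ccl28, Ccl20 and Ccl2, at log2 ratios of 1.23, 1.22 and 1.04. Slpi, a secreted protease inhibitor of epithelium, had a level of 525 on the βERKO-labelled array, 95.7 on the WT array with DMBA and 613 on the WT array without DMBA, while Saa1, an acute-phase protein, had levels of 1.88, 20.9 and 6.60.

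Metabolic genes gave smaller groups. Of 17 measured genes of retinol metabolism and retinoid response 5 were higher and none lower. They included Adh7, an alcohol dehydrogenase that oxidises retinol, at a log2 ratio of 3.06, and Aldh1a3, a retinaldehyde dehydrogenase, at 2.13. Adh7 had a level of 21.3 on the βERKO-labelled array, 2.55 on the WT array with DMBA and 24.4 on the WT array without DMBA. Of 7 measured genes of steroid hormone synthesis and inactivation 2 were higher, Star, the cholesterol carrier of steroid synthesis, at 3.61, and Akr1c18, which inactivates progesterone, at 2.85. Of 5 genes of taurine and hypotaurine metabolism 1 was lower, Ggt1, at -2.07. In fatty acid and triglyceride synthesis 3 of 18 were lower, with Fasn, fatty acid synthase, at 23.2, 123 and 27.6 on the 3 arrays, and 1 was higher. Of 20 genes of cholesterol synthesis and uptake none was over 2-fold apart, and the median log2 ratio was -0.22.

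**Figure D5:**
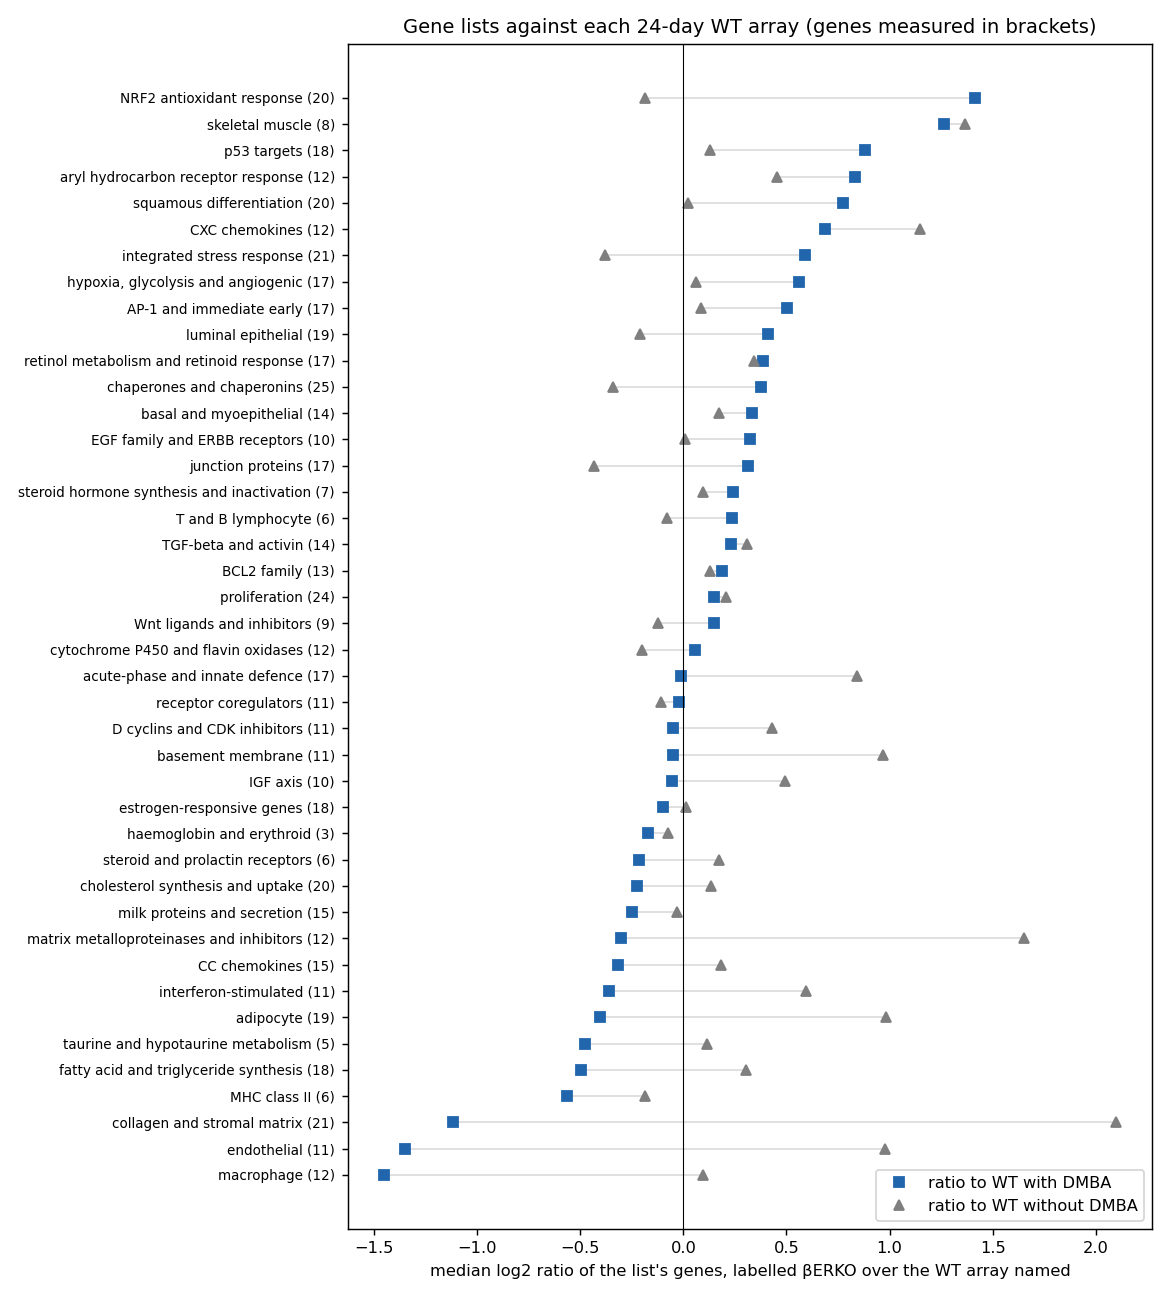
Median log2 ratio of 42 gene lists on the βERKO-labelled array, over the WT array with DMBA (blue squares, genes good on those 2 arrays) and over the WT array without DMBA (grey triangles, genes good on all 3). The stromal list moves from -1.12 to 2.1 and the NRF2 list from 1.41 to -0.19, while the skeletal muscle list stays above 0 against both WT arrays.

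Growth factor lists held single genes that differed. In the EGF family 3 of 10 measured genes were higher, among them Ereg, epiregulin, at a log2 ratio of 1.31, and Hbegf, heparin-binding EGF, at 1.24. Of 14 genes of TGF-β and activin 4 were higher and 1 lower. Inhba, the activin βA chain, had a level of 9.14 on the βERKO-labelled array, 1.38 on the WT array with DMBA and 2.66 on the WT array without DMBA. In the IGF axis 2 of 10 were higher and 3 lower, with Igfbp2 at 2.04. Wif1, a secreted Wnt inhibitor, had levels of 1.07, 8.28 and 1.17, a log2 ratio of -2.95. Of 17 genes of hypoxia, glycolysis and angiogenesis 4 were higher, with Adm, adrenomedullin, at 16.8, 2.28 and 22.4, and Vegfa at 19.0, 7.45 and 32.2. On the log2 scale the βERKO-labelled array lay nearer to the WT array without DMBA than to the WT array with DMBA for Wif1, Adm and Vegfa.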

How the data were processed

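The platform was the 1-colour CodeLink Mouse Whole Genome array. The deposited intensity of each spot was computed by the authors as its mean signal less the median of the surrounding background, and the scanner software rated its quality. The authors worked in GeneSpring GX 7.3. Intensities of gene probes were divided by the array median, log2 was taken, and probes over 2-fold were counted among those good on both arrays. No test was run, since each group is 1 array. A probe not good on 1 array has at most a bound. It was taken against the detection limit of the dim array (its lowest good value), or against the dim probe itself where that is higher. Counts of bounds include probes with calls other than near background. RefSeq's gene table of GRCm38.p6 named 14763 of 15553 probes with a RefSeq accession. A gene is given by its brightest probe.

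Genes named are those the study names as transcripts, the 15 with the largest ratio each way, the 4 with the largest absolute ratio in each of 42 lists and the 5 with the largest bound each way, of which 1 is not reported here. Others were named after their values were seen (Gclm, Srxn1, Epcam, Adipoq, Ivl, Tagln, Acta2, Actg2, Sprr2a1, Cxcl12, Cxcl15, Ccl2, Ccl20, Ccl28). The arrays, probes and lists were chosen with earlier results of these data known. Alternatives were other scalings, normexp with an offset of 50, other thresholds and filters, other probe rules and the deposited series table, whose entries name no probe. Counting was tested on simulated data. Python 3.11.15, pandas 2.3.3, R 4.3.3 and limma 3.58.1 were used. The number of arrays limits the precision.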

Additional observations from a re-analysis of the deposited data

Results flagged for a closer look

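The Esr2 probe stood out as a signal against the array's label: its level was 1.83 on the βERKO-labelled array, where the software called it good, and near background on the WT array with DMBA. The position of the probe in the transcript was not examined, and no other Esr2 probe was used.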

How the results depend on the processing

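No paired analysis was possible because each group is 1 array and leaving an array out leaves no comparison. The count of 1938 probes over 2-fold (942 higher, 996 lower) stayed within 1.5 times under the 75th percentile, quantile normalization, cyclic loess, a median over all spots or over probes good on both arrays, and the deposited normalized intensity, and the share higher among them lay between 42.5% and 48.6%. It was 1029 (442 and 587) with normexp at an offset of 50, 5056 (2804 and 2252) at 1.5-fold, 744 (344 and 400) at 3-fold, 4212 (1913 and 2299) for probes good on at least 1 array, 7326 (3627 and 3699) with no filter and 6770 (3395 and 3375) in the deposited series table. Bounds over 2-fold numbered 942 over both directions and 345 with the detection limit at the 5th percentile. With the WT array without DMBA as reference, chosen after the data were seen, 1148 probes were higher and 506 lower, so 69.4% were higher against 48.6%, and the median log2 ratio turned from 1.41 to -0.19 for the NRF2 list, from -1.12 to 2.1 for the stromal list, from -1.45 to 0.10 for the macrophage list and from -1.35 to 0.98 for the endothelial list. Against that array 48 of 84 list counts moved by more than 1.5 times, and 22 of 42 list medians moved beside these 4, among them luminal (0.41 to -0.21), adipocyte (-0.40 to 0.98), integrated stress response (0.59 to -0.38) and junction proteins (0.31 to -0.43). Of 183 named genes, 130 were over 2-fold apart. All 130 kept their sign under the 7 scalings and background settings, and 112 stayed over 2-fold in all of them. Several of these settings only divide each array by another constant, and the 130 were over 2-fold to begin with. The kept signs were thus largely fixed in advance and are no check of the differences. Under the alternatives other than that array 116 of 840 list counts moved by more than 1.5 times and 1 of 420 list medians moved. The cause of these differences was not tested. Low signal over background limits the dim probes, whose ratios the normexp offset moves most by construction.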
